A study of Mus musculus and unidentified plasmid with 60 samples.

Results

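The regions described here are the broad stretches of mouse chromatin that a dominant-negative RFX protein occupied in silenced cortical neurons and that kept more than 0.5 times their width after 1 h of depolarization. A region was taken from the 0 h list when both of the list's replicate columns gave it a centre, its width (end minus start) was at least 600 bases, and the widest 1 h region overlapping it was more than 0.5 times as wide. Of the 173231 regions at 0 h, 105643 had a centre in both columns and 5399 of these were at least 600 bases wide. No overlapping 1 h region was listed for 80 of the 5399, and the widest overlapping region was at or under 0.5 times the 0 h width for 1747. The remaining 3572 are the broad retained regions, 2.06% of the 0 h regions by number and 7.44% by bases covered.

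The study compared promoter and enhancer activities with reporter libraries and mapped RFX binding by ChIP-seq. Neurons came from E16 CD-1 mouse embryos and were cultured to day in vitro (DIV) 7. In both RFX groups, lentivirus delivered the dominant-negative RFX on DIV 2, activity was silenced overnight from DIV 6 with tetrodotoxin and DL-2-amino-5-phosphonopentanoic acid (an NMDA receptor blocker), and chromatin was precipitated through the MYC tag. The 0 h group, labelled unstimulated, received no KCl, and the 1 h group was depolarized in 55 mM KCl for 1 h. A group titled WT has no treatment in its labels, and whether it carried the construct is not clear from them. A further group of 2 libraries, titled input, has no list among those used here. Each of the other groups has 2 libraries, and its list was made once for both. What was mapped is therefore the tagged dominant-negative protein delivered by virus, not the neurons' own RFX proteins, and no promoter or cell type restriction of the construct is given in the labels.

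RFX proteins are transcription factors with a winged-helix DNA-binding domain. They bind the X-box, an imperfect inverted repeat, as homodimers or heterodimers, and are known for controlling ciliary genes and MHC class II genes. In ChIP-seq, a single bound site usually gives a narrow enriched stretch around a centre, whereas neighbouring sites can be joined into one wide region. Depolarization with KCl opens voltage-gated calcium channels and starts the activity-regulated gene programme of neurons.

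The regions were chosen by their widths at 0 h and 1 h and by having both 0 h centres, so widths and ratios are given as a description without a test. The 0 h width ran from 600 to 6920 bases, with a median of 750 (quartiles 660 and 890). The widest 1 h counterpart ran from 310 to 6880 bases, with a median of 710 (quartiles 610 and 830). The ratio of 1 h to 0 h width had a median of 0.95 (quartiles 0.88 and 0.988, lowest 0.505, highest 2.093). Most of these stretches thus differed little in extent between the lists, and 2460 of 3572 (68.9%) were within 10% of equal width. At 1 h, 2806 were narrower, 253 were equal and 513 were wider. A width of at least 600 bases was kept by 2778 (77.8%). Only 35 had a ratio over 1.2 and 13 a ratio over 1.5. A combined region has 1 width per list and therefore no replicate error.

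The share at least as wide at 1 h was 766 of 3572 (21.4%). The 21.5% over all 0 h regions with both centres is no like measure. It also counts regions that met no 1 h region or were at or under 0.5 times. Among regions more than 0.5 times as wide at 1 h, the share was 42.9% from 100 to under 200 bases. It was 32.1% from 300 to under 400 bases and 18.1% from 500 to under 600. Nothing is read from the 21.4%. Over the same 105643 regions, 84.9% overlapped a 1 h region, and 73.4% had a 1 h region more than 0.5 times as wide. Among those of at least 600 bases the latter share was 66.2%, which is the rule itself.

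The ratios of the 5319 regions of at least 600 bases that met a 1 h region formed 2 groups. There were 1998 with a ratio over 0.9 and up to 1, and 552 over 0.3 and up to 0.4, with 137 between them, over 0.6 and up to 0.7. The limit of 0.5 lay on the slope of the lower group: 539 regions had a ratio over 0.4 and up to 0.5, and 256 had one over 0.5 and up to 0.6. Just inside the limit were regions on chromosome 11 (78866390 to 78867300, ratio 0.505), chromosome 4 (47023400 to 47024190, ratio 0.506) and chromosome 6 (88985490 to 88986260, ratio 0.506). Just outside were 25 regions at a ratio of exactly 0.5, of which the leftmost were on chromosome 2 (32461760 to 32462400, 130050510 to 130051290, and 157811720 to 157812340). The retained regions therefore include the upper edge of the group that narrowed to about 0.3 to 0.5 times its 0 h width.

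**Figure D1:**
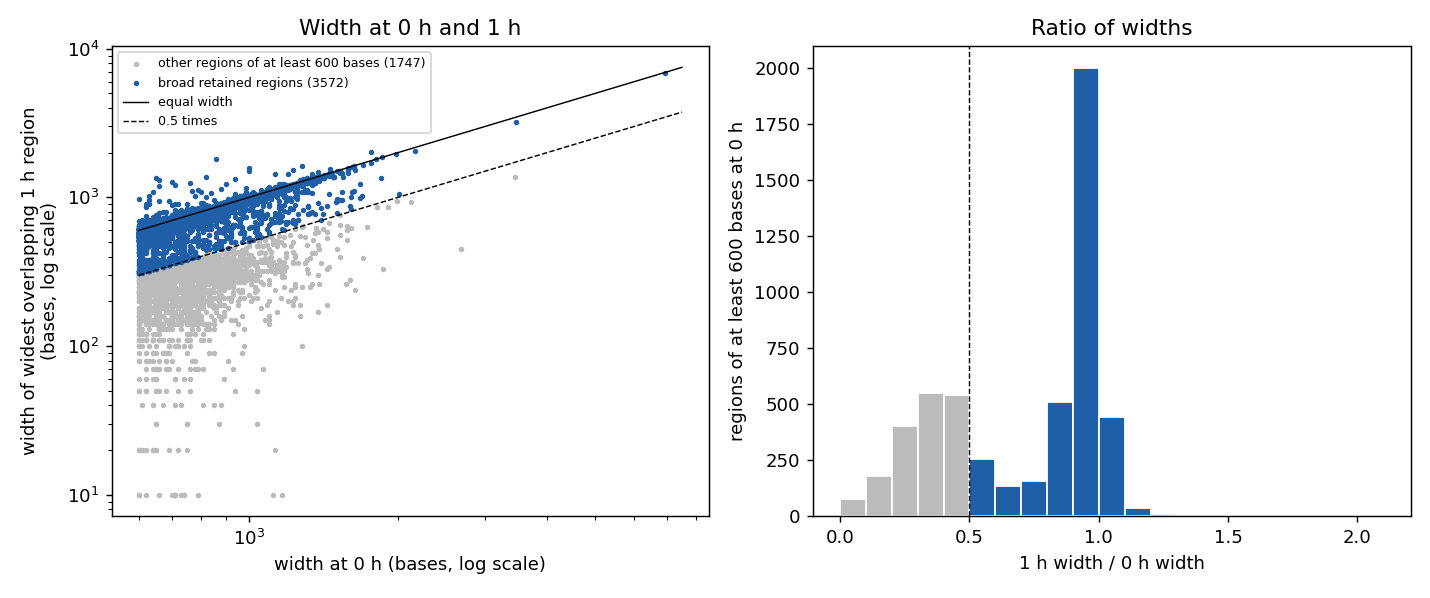
Left, width at 0 h against width of the widest overlapping 1 h region (bases, both axes logarithmic), 1 point per region of at least 600 bases with both centres; blue points are the 3572 broad retained regions and grey points the 1747 at or under 0.5 times. Right, number of these regions by ratio of 1 h to 0 h width in steps of 0.1; the tallest bar holds 1998 regions between 0.9 and 1 and the dashed line marks the limit of 0.5.

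The width limit divided regions of similar number and ratio. At 600 bases exactly there were 144 regions (median ratio 0.917), and 141 regions of 590 bases met the rest of the rule (median ratio 0.898). Examples inside were regions on chromosome 1 (18748410 to 18749010, 43191370 to 43191970 and 43787230 to 43787830), with 1 h widths of 380, 640 and 590 bases. Examples outside, also on chromosome 1 (43611310 to 43611900, 60099830 to 60100420 and 61236140 to 61236730), had 1 h widths of 470, 540 and 370 bases.

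The ratio differed modestly between width classes. The 1233 regions under 700 bases had a median ratio of 0.926 and the 942 from 800 to under 1000 bases one of 0.963. The 498 regions of 1000 bases and over had a median of 0.96 (quartiles 0.842 and 0.991). Of these, 23.1% had narrowed to 0.8 times or less. Regions under 700 bases had a similar spread (quartiles 0.848 and 0.984), and nearly as large a share of them had narrowed that far. The share was lower between these classes, at 10.8% from 700 to under 800 bases and 9.87% from 800 to under 1000 bases. Such narrowing was thus not particular to the widest class. Medians by chromosome lay between 0.932 (chromosome 14) and 0.966 (chromosome 18).

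The edges showed where extent was lost. The start and the end each moved inward by a median of 10 bases, which is 1 step of the coordinate grid, and both edges were within 10 bases of the 0 h edges in 615 regions (17.2%). The 1 h region lay inside or equalled the 0 h region in 2419 (67.7%), passed 1 edge in 1033 and passed both in 120. Among the 552 regions at a ratio of 0.8 or less, loss was mostly from 1 side, as judged by the widest 1 h region alone. Of the 552, 40 met a second 1 h region, which could cover part of the stretch counted as lost. The edge that moved more did so by a median of 280 bases, while the other moved by a median of 10 and by at most 20 in 345 (62.5%). Where the 0 h centres lay within 50 bases of each other and neither position was tied, 407 of 477 such regions (85.3%) lost more on the edge farther from the centre. The centre fell outside the 1 h region in 2 of all 3028 broad retained regions with centres that close. Over all broad retained regions, centres lay a median of 180 bases from the nearer edge, less than the median loss of 280 bases. A region that kept its centre thus had little room to lose on the near side, so the 85.3% partly follows from position.

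The regions with the lowest ratios illustrate this. On chromosome 6 (88985490 to 88986260) the start moved by 10 bases and the end by 370, leaving 390 of 770 bases around a centre that had been 200 bases from the start. On chromosome 10 (128360050 to 128360820) the shifts were also 10 and 370 bases. On chromosome 4 (47023400 to 47024190) and chromosome 13 (63081600 to 63082350) the loss was at the start, by 390 and 380 bases, and the centres, 600 and 560 bases from the start in the first column, moved by at most 20 bases in either column. On chromosome 11 (78866390 to 78867300) the end moved by 470 bases, and the 0 h centres were 340 bases apart.

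The 5 highest ratios came from extension mainly on 1 side, with the other edge shifted by at most 70 bases. On chromosome 4, a region of 860 bases (108673610 to 108674470) became 1800 bases by a start 910 bases farther out. Another on the same chromosome (94717770 to 94718420) went from 650 to 1360 bases by an end 780 bases farther out, and here the centres also moved, from 90 and 110 bases to 1250 bases from the 0 h start in both columns. On chromosome 3 (145770860 to 145771520) the width went from 660 to 1320 bases. On chromosome 17 (84864750 to 84865410) it went from 660 to 1200 bases and on chromosome 18 (30299510 to 30300210) from 700 to 1270 bases, each by an end 570 bases farther out.

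Few broad retained regions were split at 1 h. A single 1 h region was met by 3527 and a pair of regions by 45 (1.26%). For the 45, the widest piece had a median ratio of 0.607 and both pieces together 0.719, and the gap between pieces had a median of 410 bases (lowest 10, highest 750). Of the regions of at least 600 bases that met a 1 h region at or under 0.5 times their width, 488 of 1747 (27.9%) met 2 or more pieces, but such splitting lowers the widest width that the rule used. No 1 h region was the counterpart of 2 broad retained regions. Of the 2988 regions at 1 h that were themselves at least 600 bases wide with both centres, 2693 (90.1%) overlapped a broad retained region. The rule used 1 h width, so this share is partly set by the rule.

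The centres of broad retained regions lay near an edge rather than in the middle. The distance from the first-column centre to the nearer edge had a median of 180 bases (quartiles 160 and 210), and the same held for the second column (median 180, quartiles 150 and 210). For the 30809 regions of 300 to 390 bases with both centres, the median was 160 bases in both columns, which for that width is about the middle. Accordingly, the first-column centre lay between 30% and 70% of the width in 793 of 3572 broad retained regions (22.2%) and in 98.9% of the regions of 300 to 390 bases. In the second column the shares were 22.4% and 98.2%. Over all 0 h regions with both centres, retained or not, the median distance to the nearer edge rose with width up to 180 bases from 400 to under 500, from 60 bases in the narrowest class of 100 to under 200. In both columns it was 160 bases from 500 to under 700, 170 from 700 to under 800, 180 from 800 to under 1000 and 200 from 1000 bases. The median offset of the first-column centre from the middle, as a share of the width, was 0.028 from 300 to under 400 bases, 0.204 from 500 to under 600 and 0.311 from 1000 bases.

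**Figure D2:**
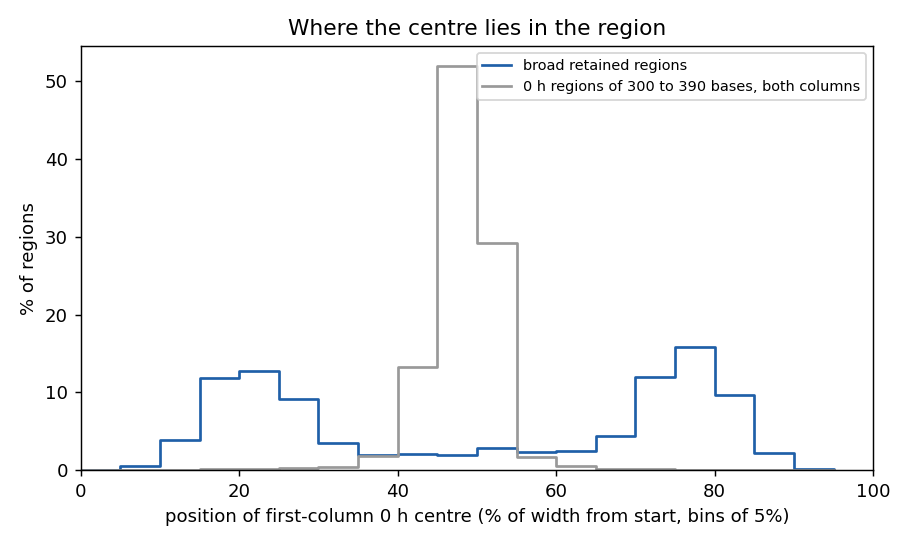
Position of the first-column 0 h centre as a percentage of the width counted from the start (x axis, steps of 5%) against the percentage of regions (y axis), for the broad retained regions (blue) and the 0 h regions of 300 to 390 bases with both centres (grey). The blue line has a peak towards either end and 22.2% of regions between 30% and 70% of the width, whereas the grey line has 1 peak in the middle.

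In most broad retained regions both columns placed the centre at nearly the same position. The columns' centres were a median of 10 bases apart (upper quartile 20, highest 1720), and in 3028 (84.8%) they were within 50 bases. In 462 (12.9%) they were 200 bases or more apart, against 1.21% over all 0 h regions with both centres, whose median width was 270 bases. By width, that share was 0.13% from 300 to under 400 bases and 24.3% from 1000 bases. Among the 1827 regions of at least 600 bases that the rule left out, 353 (19.3%, 95% exact Clopper-Pearson interval 17.5% to 21.2%) had centres that far apart; the interval for the broad retained regions was 11.9% to 14.1%. These intervals cover counting error only and regions are not replicates. The 462 had a median width of 810 bases and a median ratio of 0.953, and those with close centres 750 bases and 0.949.

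At 1 h, some of the regions picked for far-apart 0 h centres had the same pair of positions, and in more of them the columns were close. Of the 462 regions, 412 had a 1 h counterpart with a centre in both columns, and in 180 of these (43.7%) the 1 h centres were again 200 bases or more apart. Both 1 h positions matched both 0 h positions within 50 bases in 160 of the 180, in 144 with the columns in the same order and in 16 with the order exchanged. In another 219 of the 412, the 1 h centres were within 50 bases of each other. They lay at the first-column 0 h centre in 155, at the second-column 0 h centre in 58 and at neither in 6. Conversely, of the 2958 regions with close 0 h centres and both centres at 1 h, 285 (9.63%) had 1 h centres 200 bases or more apart. Over all 3443 counterparts with both centres, 472 (13.7%) had 1 h centres that far apart. At 0 h, the centres were that far apart in 412 of the same 3443. Over all broad retained regions it was 462 (12.9%). The share of far-apart centres was thus not lower at 1 h. Across all broad retained regions, each of the 4 pairings of a 0 h with a 1 h column had a median distance of 10 bases, and 80.0% to 88.6% of centres were within 50 bases. Since no column is tied to a library by name, columns were not matched between the lists.

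Support by the 1 h columns was not itself used to choose the regions, but the rule used 1 h width, which goes with such support. In the 1 h list, 2988 of 3130 regions of at least 600 bases had a centre in both columns. Over all widths in that list it was 66910 of 122135. The shares that follow are therefore partly set by the rule, and shares by 1 h width among the counterparts were not computed. A centre in both 1 h columns was held by the counterpart of 3443 of 3572 (96.4%, exact interval 95.7% to 97.0%), while 122 had a first-column centre only and 7 a second-column centre only. Over all 0 h regions with both centres that met a 1 h region, the share was 71.8%. That background is set mainly by narrow regions. Taking in each class only regions more than 0.5 times as wide at 1 h, the share was 38.1% from 100 to under 200 bases. It was 94.9% from 300 to under 400, 94.0% from 600 to under 700, 98.6% from 800 to under 1000 and 98.2% from 1000 bases. For the regions of at least 600 bases at or under 0.5 times, it was 1351 of 1747 (77.3%). By column, 99.8% of the counterparts had a first-column and 96.6% a second-column centre, against 95.5% and 76.4% over all regions met. The second 1 h column is the shorter one, with 74386 centres against 114659 in the first.

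The 10 widest broad retained regions differed in how the centres were placed. The widest, on chromosome 13 (mm9, 20006890 to 20013810), spanned 6920 bases at 0 h and 6880 at 1 h. Its centres coincided in both columns, 3620 bases from the start at 0 h and 3630 at 1 h, so that its centre was near the middle, unlike most. The region on chromosome 17 (3083080 to 3084890, 1810 bases, 1800 at 1 h) had all 4 centres within 10 bases of one another, 600 and 590 bases from the start at both times. The region on chromosome 12 from 117814590 to 117816760 had coincident centres 1870 bases from its start at 0 h and 1890 bases at 1 h.

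In 3 others the columns chose opposite ends, and did so at both times. On chromosome 5 (124798190 to 124800170) the first-column centre was 1910 and the second-column centre 190 bases from the start at 0 h, and they were 1920 and 180 bases from it at 1 h. On chromosome 1 (73051190 to 73052960) the 0 h centres were 1570 and 400 bases from the start, and the 1 h centres 1580 and 420. The other region on chromosome 1 (183282470 to 183284240) had centres 1600 and 60 bases from the start at 0 h and 1590 and 40 at 1 h, and it was the only one of the 10 that was wider at 1 h, by a start 270 bases farther out.

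In 3 more the columns disagreed at 0 h and came closer at 1 h. On chromosome 12 (88142140 to 88144150) the centres were 1130 bases apart at 0 h. At 1 h the widest piece had lost 950 bases from its start and both columns placed the centre 1250 bases from the 0 h start, where the first 0 h column had it (1260). On chromosome 5 (134789350 to 134791210) the distance between centres went from 720 to 10 bases at an unchanged width of 1860. On chromosome 11 (113643490 to 113645340) it went from 740 to 130 bases while the width went from 1850 to 1360. The region on chromosome 9 (72464340 to 72467800) went the other way, from 35 bases between centres at 0 h to 1530 at 1 h, while its width went from 3460 to 3240 bases.

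**Figure D3:**
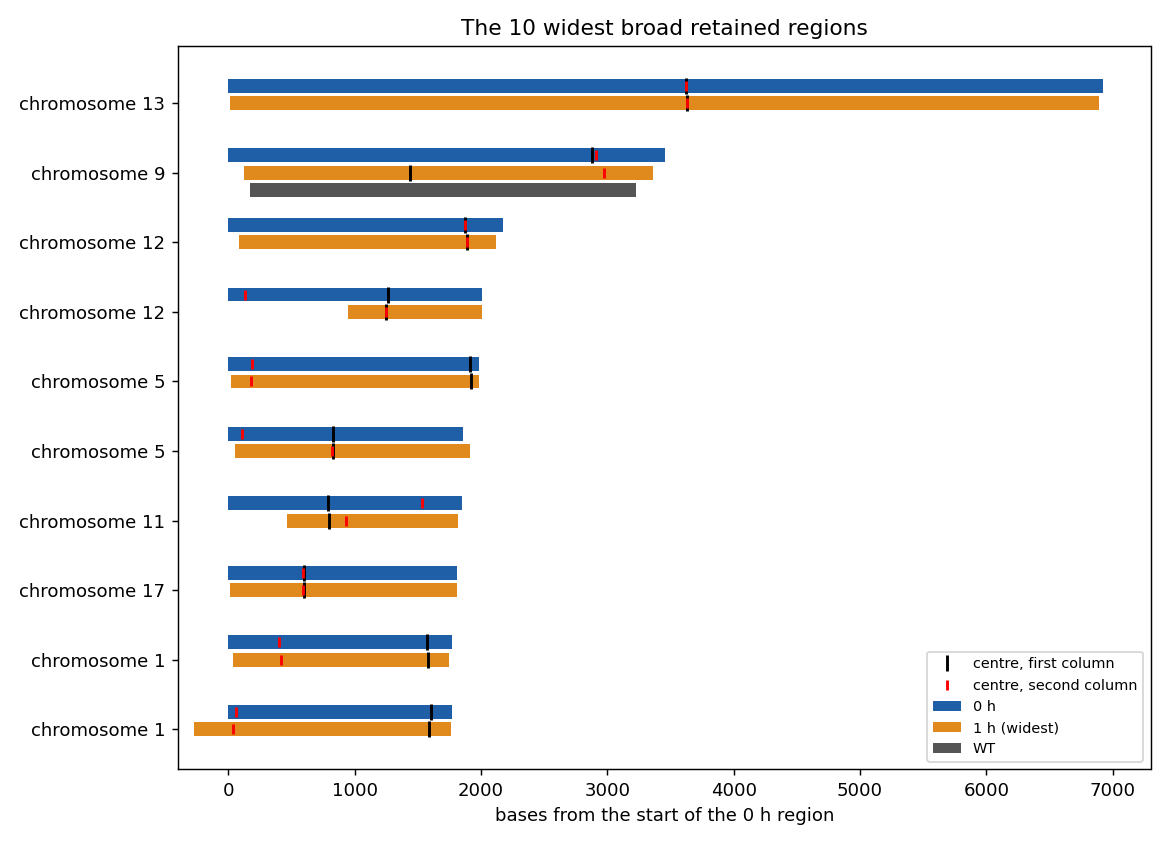
The 10 widest broad retained regions, each drawn to scale from the start of its 0 h region (x axis, bases): 0 h extent in blue, widest 1 h extent in orange and, where present, the WT region in grey, with first-column centres as long black ticks and second-column centres as short red ticks. In 6 of the 10 the ticks of the 0 h bar are 720 bases or more apart.

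Only 3 broad retained regions overlapped a WT region (0.0840%), against 15 of the 105643 regions with both centres (0.0142%). Besides the region on chromosome 9, whose WT counterpart ran from 72464510 to 72467570, they were on chromosomes 19 and 10. The chromosome 19 region (27880590 to 27881520) was 930 bases wide at 0 h, 910 at 1 h and 700 in WT (27880650 to 27881350). Its 0 h centres coincided at 27880750, its 1 h counterpart had a second-column centre only, at 27880710, and the WT centres were at 27881330 and 27880730. The chromosome 10 region (79371030 to 79372210) went from 1180 to 600 bases. Its WT region, of 350 bases (79371620 to 79371970) with a first-column centre only, lay in the part that was mostly lost at 1 h, where the region ended at 79371710. With counts this small no difference between the shares is claimed.

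Broad retained regions were found on every chromosome of the lists except chromosome 21, which held 16 regions with both centres and no region of at least 600 bases among them. The lists number chromosomes from 1 to 21, and 20 and 21 presumably stand for X and Y. Chromosome 2 held the most, with 274, followed by chromosome 11 with 270 and chromosome 5 with 258. As a share of the regions with both centres, which was 3.38% in all, chromosome 11 (4.28%) and chromosome 19 (4.12%) stood highest and chromosome 13 (2.81%) lowest among chromosomes 1 to 19, whose mean was 3.41% ± 0.379 (SD over 19 chromosomes). Chromosome 11 also had the most per Mb of the listed span (2.27, against a mean of 1.48 ± 0.301), followed by chromosome 19 (2.03).

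Chromosome 20 held 59 broad retained regions, 2.48% of its regions with both centres and 0.361 per Mb. Of its regions of at least 600 bases with both centres, 65.6% passed the rule, as did 66.3% ± 3.63 on chromosomes 1 to 19. The lower share thus lay in how many regions were wide (3.78% of those with both centres, against 5.14% ± 0.456) more than in how many of those passed the rule. The median ratio on chromosome 20 was 0.963. Its 3 widest were at 5004820 to 5006130 (1310 bases, 1260 at 1 h), 148450350 to 148451470 (1120 bases, 1140 at 1 h) and 166435780 to 166436870 (1090 bases, 1080 at 1 h). On chromosome 13 both shares were below the mean: 58.2% of its wide regions passed the rule, the lowest of chromosomes 1 to 19, and 4.83% of its regions were wide.

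**Figure D4:**
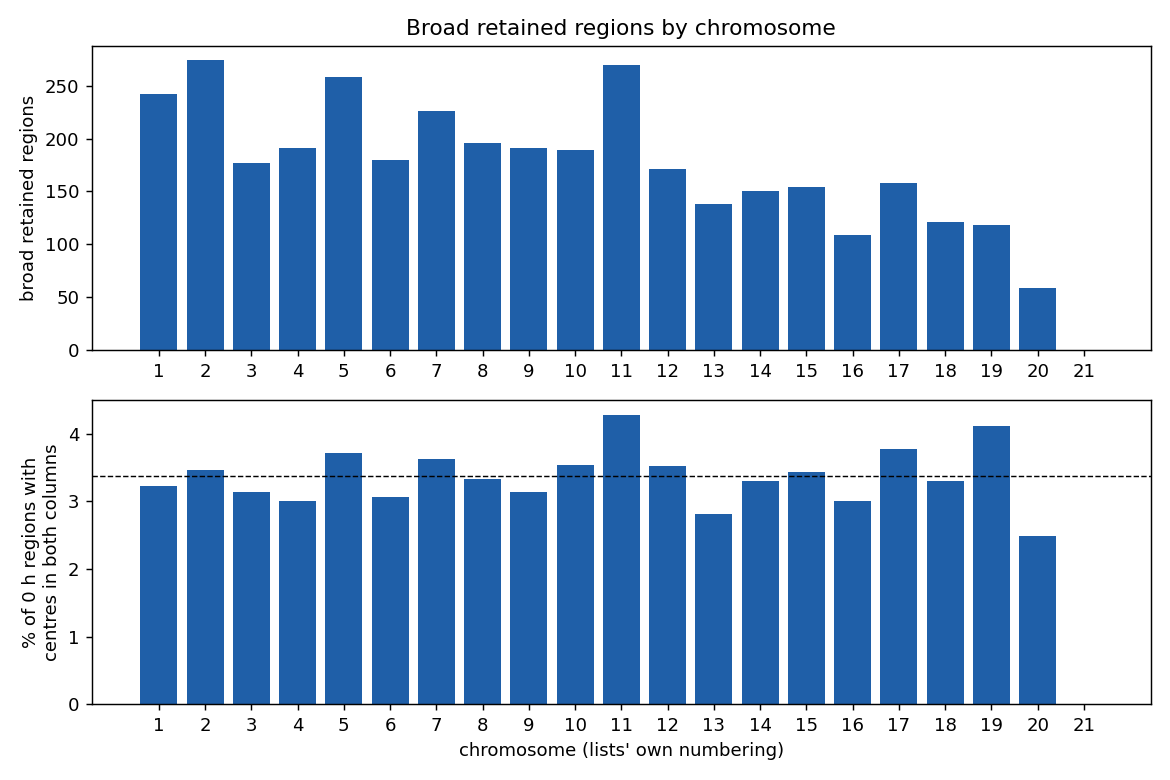
Number of broad retained regions (top, bars) and their percentage among 0 h regions with both centres (bottom, bars) by chromosome in the lists' own numbering; the dashed line is the percentage over all chromosomes, 3.38%. Chromosomes 11 and 19 have the highest percentages, 4.28% and 4.12%, and chromosome 21 has none.

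The nearest other broad retained region on the same chromosome was a median of 144 kb away, edge to edge (quartiles 53.7 and 342 kb, highest 7.84 Mb). From the other 102071 regions with both centres, the nearest broad retained region was a median of 191 kb away. Another broad retained region lay within 100 kb for 1403 of 3572 (39.3%), against 32.6% for those other regions, and within 10 kb for 219 (6.13%), against 4.38%. The 1827 wide regions that the rule left out came between, with a median of 148 kb, 37.3% within 100 kb and 5.25% within 10 kb. Some 0 h region of any width lay within 1 kb of 625 (17.5%), against 13.3% of the other regions with both centres. The share was 17.2% for the wide regions that the rule left out, so it did not set the retained ones apart from them. Density differs between chromosomes and along them, and its part in these shares was not tested.

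Most broad retained regions stood alone. When regions with gaps of at most 100 kb were joined, 2169 were single, 453 groups held 2, 100 held 3 and 41 held from 4 to 9. With gaps of at most 10 kb there were 105 pairs, 3 groups of 3 and no larger group. Pairs with a gap of at most 1 kb numbered 18, with gaps from 420 to 1000 bases, and in all 18 each region had a 1 h counterpart of its own. The closest pairs, each 420 bases apart, were on chromosome 1 (173123020 to 173124050 and 173124470 to 173125390) and chromosome 15 (74581510 to 74582710 and 74583130 to 74583960). Of the latter pair, the left region went from 1200 to 680 bases and the right from 830 to 790. Median ratios were nearly the same in crowded and isolated regions, at 0.951 for regions with another within 10 kb and 0.95 for the rest.

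**Figure D5:**
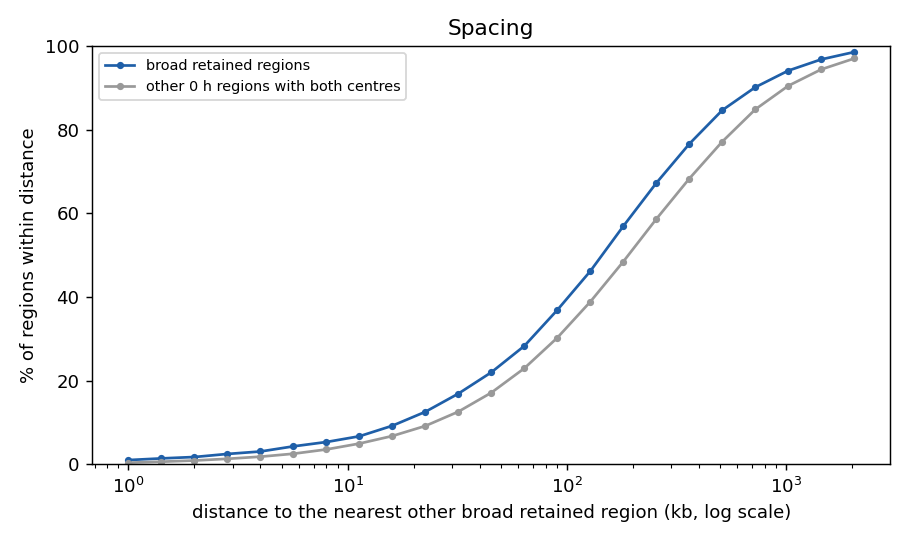
Percentage of regions (y axis) with a broad retained region within a given edge-to-edge distance (x axis, kb, logarithmic), for the broad retained regions themselves (blue) and all other 0 h regions with both centres (grey). The blue line is above the grey one throughout, at 39.3% against 32.6% at 100 kb.

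The largest group, singled out after its values were seen, held 9 broad retained regions in 318 kb of chromosome 5, from 143571720 to 143889760, among 52 regions of the 0 h list. Its widest region (143571720 to 143573260) was 1540 bases wide at 0 h and met 2 regions at 1 h. The wider of these was 960 bases wide and started 590 bases farther in, and both together covered 1160 bases. The group's rightmost region (143889150 to 143889760) went from 610 to 370 bases. Its centres went from 0 bases apart at 0 h to 335 at 1 h. The other 7 had ratios from 0.935 to 1.066. In 2 of the 9 the 0 h centres were far apart, by 520 bases in the region from 143602560 to 143603370 and by 700 bases in the one from 143822520 to 143823520, and in both they were 10 bases apart at 1 h. Groups of 7 lay on chromosome 5 (112028330 to 112242780) and chromosome 8 (86422980 to 86722700).

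In fixed windows of 100 kb the highest count was 4, reached in 4 windows. On chromosome 5, the window from 112100000 held regions at 112132670 to 112133700, 112136670 to 112137280, 112147150 to 112148460 and 112190170 to 112191210, which spanned 1030, 610, 1310 and 1040 bases. Their 1 h counterparts spanned 1000, 550, 1250 and 800 bases. The rightmost lost 230 bases at its end, and the others lost no more than 60 in width. This window held 31 regions of any width at 0 h, so its broad ones were a small part of a crowded stretch.

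The windows on chromosome 8 were less crowded, with 14 and 17 regions of any width. From 73300000, the 4 regions started at 73300380, 73316220, 73320680 and 73389260 and had ratios of 0.915, 0.989, 0.721 and 0.987. From 123000000, they started at 123043860, 123058850, 123076340 and 123087720 and had ratios of 0.921, 1.03, 0.855 and 0.987. The remaining window, on chromosome 11 from 69800000, held 12 regions of any width. Its 4 broad ones started at 69804370, 69808730, 69834620 and 69842350, with ratios of 0.968, 0.746, 0.981 and 1.009. All 16 regions of these windows had centres in both columns at 1 h, and in 15 of them the 1 h centres were at most 100 bases apart. The exception was the region from 123087720 to 123088490, with centres 180 bases apart at 0 h and 320 at 1 h.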

How the data were processed

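Bound regions of 3 ChIP-seq groups of 2 libraries each were used. The authors deposited 1 list per group with a chromosome, a start and an end and, per the file headers, columns c1 and c2, whose values lie within the region or are -1. These other values, positions in bases, were read as the centre in each replicate, with -1 as no centre. Per the submitters' processing notes Bowtie and mm9 were used. The caller, the threshold, how libraries were combined and whether positions count from 0 or 1 were not given in the sources used here. Coordinates are printed as listed. Depth is unknown, since no counts were used.

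Regions overlapped when they shared at least 1 base. Computations used Python 3.11.15, numpy 2.4.6, pandas 2.3.3, scipy 1.17.1 and matplotlib 3.10.9. Shares carry exact Clopper-Pearson intervals at 95% where printed, for counting error only. No test was made, because each list has 1 value per region for its 2 libraries and regions are not replicates. The rule's code was run on 40000 simulated regions and recovered 100% of 3222 planted members with 0 false ones. Planted members were set by the same rule, so this checks only that the code follows it. No simulated region met more than a single 1 h region, so choosing the widest of several was not checked.

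Regions named are the 10 widest, the 5 highest and 5 lowest ratios, those meeting WT, the members of the up to 3 fullest 100 kb windows (the fourth, on chromosome 11, was tied and added after its values were seen), the 3 widest on chromosome 20 and 3 on either side of each limit. The regions and lists were chosen with earlier results of these data known. No mm9 annotation or genome was used, so genes, start sites, gene lists, motifs and sequences are not analysed here.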

Additional observations from a re-analysis of the deposited data

How the results depend on the processing

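Of 62 alternative values, 45 stayed within the main value's interval or, for counts, within 1.5 times. Those 45 include nearly all values with 1 column left out, which could hardly change, so 45 is no measure of stability. The intervals cover counting error only. A minimum width of 800 bases left 1440 regions, and the median ratio was then 0.962, against 0.94 with 500 bases, 0.936 with a limit of 0.4 times, 0.955 with 0.6 times and 0.946 with the summed 1 h width. The share at least as wide at 1 h was 18.6% with a limit of 0.4 times and 23.1% with 0.6 times. The share with another within 100 kb was 50.4% at 500 bases, 21.1% at 800 bases, 43.5% at 0.4 times and 37.3% at 0.6 times, and it was 6.13% within 10 kb and 93.9% within 1 Mb. The share of counterparts with both 1 h centres was 95.5% at 500 bases and 98.5% at 800 bases. With 1 column left out, that share was 95.8% to 99.8%, highest without the first 1 h column, where only regions with a second-column centre remain. The number of regions was then 3450 to 3602, the median ratio 0.95 in each case and the share at least as wide 21.4% to 21.6%. The share with another within 100 kb was 39.1% to 39.4%, and WT regions were met by 2 to 3, fewest without the second 1 h column. Leaving a column out changed only which regions counted as having a centre, and widths stayed those of the combined regions. Of the 5505 regions of at least 600 bases at 0 h, 5399 had both centres. These values could therefore hardly change and do not show stability across libraries. Alternatives on start sites and motifs were not run. No paired analysis was possible because neither replicate column is tied to a library. Depth is unknown, the 1 h list is the shorter one (122135 regions against 173231), and the part of depth in listing and width was not tested.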
